A study of Labrus bergylta with 24 samples.

Results

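Of 20751 transcripts measured in the hindgut of 24 ballan wrasse, 66 were close to absent in some fish and abundant in others without following the main axis of variation between the libraries. A transcript was called off in a fish at no more than 1 sequenced read, and on at a normalized count of at least 100, where the normalized count is the number of reads divided by a size factor for the library. Members had a mean of at least 10 over all fish and were off in 3 or more fish and on in 3 or more fish, which held for 178 of the 17056 transcripts with that mean. The 112 of these whose log2(normalized count + 1) had a Pearson correlation above 0.8, in either direction, with the score of the first principal component were taken out. The 66 that remained were 0.387% of the 17056. Their numbers of fish on and off, and all likeness between them, come from the values that chose them, and are given as descriptions without a test.

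The ballan wrasse, Labrus bergylta, is a marine cleaner fish without a stomach, and the 24 libraries came from 6 fish on each of 4 diets. All fish ate a reference diet for 4 weeks and were then fed for 5 weeks. Control fish stayed on the reference diet, prebiotic fish received it with 0.4% of a commercial prebiotic (Aquate SG), soyasaponin fish with 0.7% soyasaponin, and combined fish with both additions. Each diet went to 2 tanks, but the tank of a fish is not given in the labels. Diet and tank therefore cannot be told apart, and every test counts the 6 fish on a diet as separate samples.

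The hindgut is the last part of the intestine, where the epithelium takes up proteins and water and where immune cells lie in and under the epithelial layer. A library made from a piece of it holds the messenger RNA of epithelial, muscle, immune, nerve and blood cells together, and fewer cells of a type cannot be told apart from less RNA per cell. Most transcripts of a tissue vary by degree between animals of one species, and one that is absent in some animals and abundant in others is a less usual pattern. The transcripts carried identifiers without gene names, so the role of a member is not given, the tissue could not be checked against marker genes, and no sequence is shown.

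Summed over the 20751 transcripts, the recovered reads came to 8.42 to 12.5 M (mega) a library. A count of 0 allows up to 3 reads at that depth, which is a normalized count of 2.11 to 3.74 depending on the library and covers counting error only. The variance along the first principal component was 31.5% of the total, and the prebiotic replicates 4 and 5 had its 2 highest scores, 112.6 and 108.1, against -55.0 to 81.8 in the other fish. The limma calls and the highest shares of the largest group are therefore also given without these 2 fish. Other descriptions by diet include both.

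The name on-off described the extremes of the 66 better than their whole profiles. Of the 1584 values (66 transcripts in 24 fish), 434 (27.4%) were off, 489 (30.9%) were on and 661 (41.7%) lay between. A member was on in 3 to 20 fish (median 7), off in 3 to 17 (median 6) and between in 0 to 18 (median 10). LABE_00072977-RA was on in the most fish, 20, and LABE_00029065-RA was off in the most, 17. Mean normalized counts ran from 22.2 for LABE_00002110-RA to 1476 for LABE_00063270-RA, with a median of 75.8. The 3 members with the highest means were LABE_00063270-RA, LABE_00004808-RA at 891 and LABE_00009956-RA at 859.

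At the edges of the rule, 15 members were off in exactly 3 fish and 14 were on in exactly 3. Just outside it, 38 transcripts were off in 2 fish while meeting the conditions on the mean and on fish on. Another 44 were on in 2 fish while meeting those on the mean and on fish off. Both counts were taken without the condition on the first component. Correlation with the first component left a gap at its threshold. The largest value inside, in either direction, was 0.732 for LABE_00002110-RA, and the smallest outside was 0.855 for LABE_00085405-RA. The minimum mean took out none by itself.

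**Figure D1:**
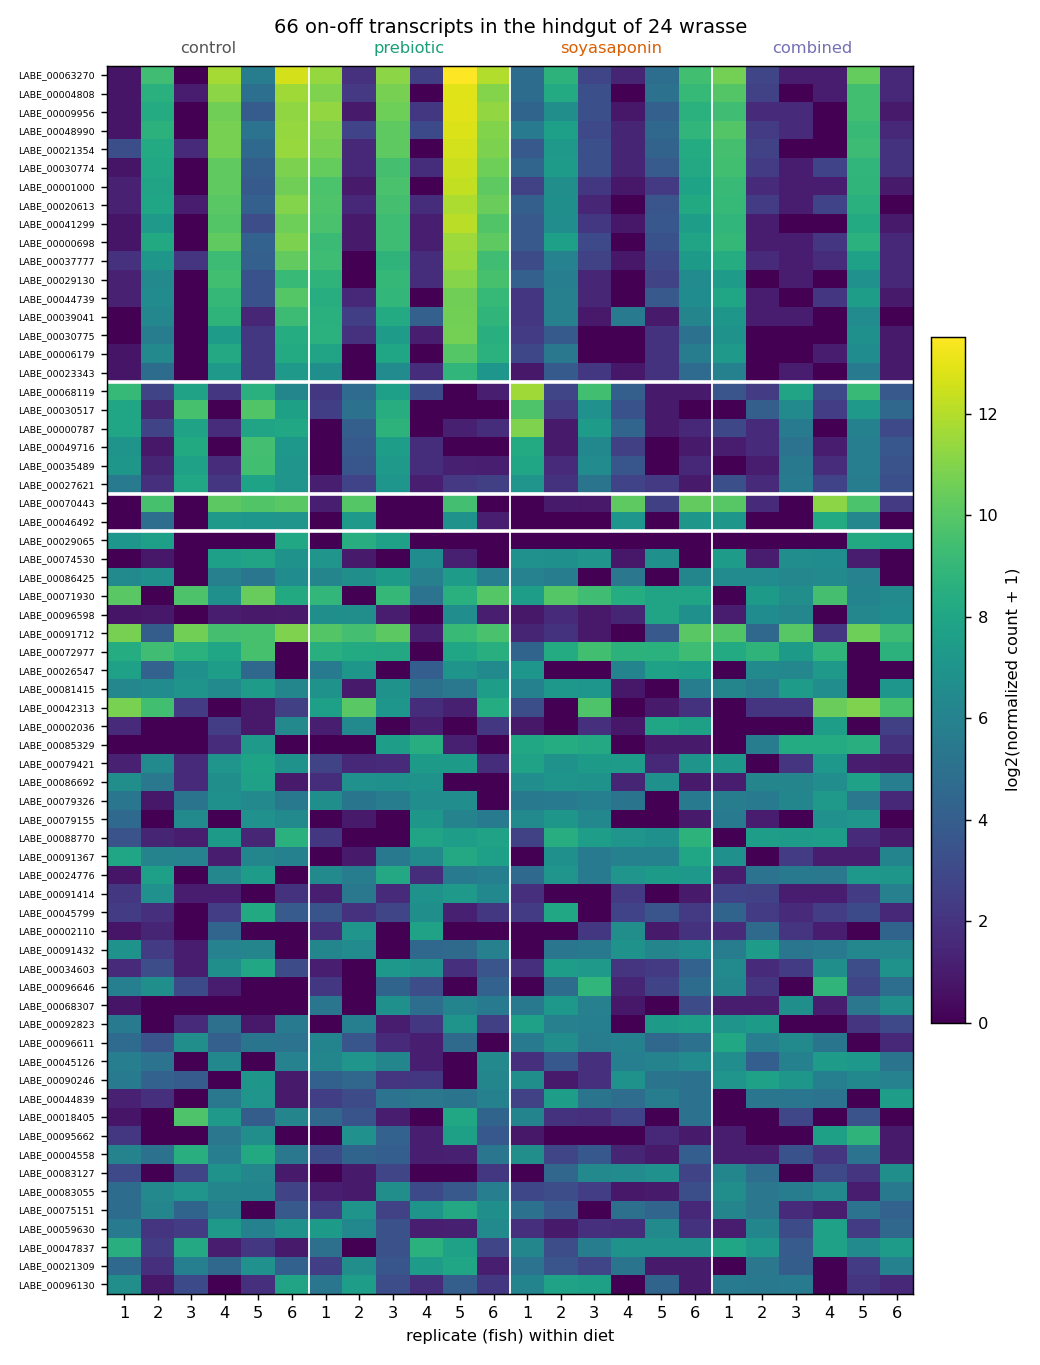
Level of the 66 members in each of the 24 fish, as log2(normalized count + 1) on the color scale, with fish in columns by diet and replicate and transcripts in rows, and white lines between the groups of like pattern. The uppermost block of 17 rows is brightest in the same 11 fish, while most rows under the third line are bright in a different set of fish each.

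The members differed from the 112 transcripts along the first component in the shape of their profiles. This difference is in part built into the rule, because the 112 were chosen for following a score that was itself graded over the fish. It is given as a description without a test. For each transcript the 24 log2 values were sorted and the widest step between neighbours was taken. It was 0.96 to 7.09 log2 units in the 66 members, with a median of 2.26, and 0.89 to 2.21 in the 112, with a median of 1.31. A step of at least 3 log2 units was seen in 24 of the 66 and in 0 of the 112, and one of at least 4 log2 units in 10 and 0. No more than 3 fish lay between off and on in 7 of the 66 and in 0 of the 112. Other members were as graded as the 112. The values of LABE_00021309-RA, for example, spread from 0 to 254 with no step above 0.97 log2 units.

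The clearest switch was LABE_00029065-RA. Its normalized counts were 135, 198 and 264 in control replicates 1, 2 and 6, 341 and 209.8 in prebiotic replicates 2 and 3, and 293 and 254 in combined replicates 5 and 6. The other 17 fish, among them all 6 soyasaponin fish, had 0 reads. The 7 fish with reads had a mean of 242 ± 67.6 (SD) and spanned 2.52-fold, and their median of 254 was at least 68.1-fold higher than the value that 3 reads in a single library allow. No fish held an intermediate level.

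LABE_00074530-RA divided the fish evenly. In 12 fish it lay between 94.9 and 233 (median 118), a 2.46-fold range, and in the other 12 it had 0 or 1 read. The upper 12 were control replicates 4, 5 and 6, prebiotic replicates 1 and 4, soyasaponin replicates 1, 2, 3 and 5, and combined replicates 1, 3 and 4. Every diet thus held fish at each level.

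Several switches ran the other way, with few fish off. LABE_00086425-RA had 0 reads in control replicate 3, soyasaponin replicates 3 and 5 and combined replicate 6, and 39.2 to 169 (median 74.2) in the other 20 fish. LABE_00071930-RA had 0 reads in control replicate 2, prebiotic replicate 2 and combined replicate 1, and 34.4 to 1324 (median 331) in the other 21. In these fish the level was far less even than in the switches above, with a 38.5-fold range. LABE_00072977-RA had 0 reads in control replicate 6, prebiotic replicate 4 and combined replicate 5, and of the other 21 fish all but soyasaponin replicate 1, at 19.2, lay between 163 and 766. Where the fish below the step had no reads, the median above it was at least 24.5-fold higher than 3 reads allow for LABE_00086425-RA, at least 100.2-fold for LABE_00071930-RA and at least 105.2-fold for LABE_00072977-RA.

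LABE_00096598-RA was above its step in 9 fish, at 75.3 to 239 (median 99.7), and at 0 to 2 reads in the other 15. Above the step were prebiotic replicates 1, 2 and 5, soyasaponin replicates 5 and 6 and combined replicates 2, 3, 5 and 6, and none of the 6 control fish, which had 0 or 1 read. The other 4 members with a step of at least 4 log2 units were LABE_00070443-RA, whose step of 6.92 was the second widest, and LABE_00091712-RA, LABE_00026547-RA and LABE_00081415-RA, the latter 3 named for that step after their values were seen. LABE_00026547-RA had 0 reads in 7 fish and 15.4 to 215 in 17. LABE_00081415-RA had 0 or 1 read in 4 fish and 30.8 to 192 in 20.

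**Figure D2:**
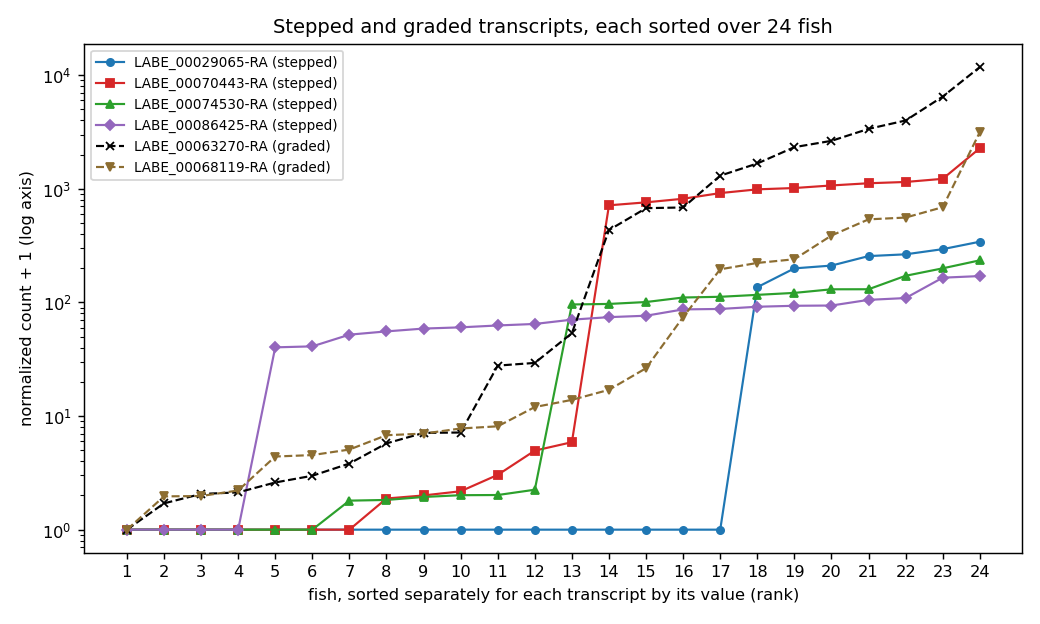
Normalized count + 1 (log axis) of 6 members, with the 24 fish sorted separately for each transcript from its lowest to its highest value. The 4 stepped members jump between neighbouring fish and are level on either side, LABE_00029065-RA from 0 to 135 between the sorted fish 17 and 18. LABE_00063270-RA and LABE_00068119-RA climb over most of the range, though LABE_00063270-RA also has a step of 3.01 log2 units, from 52.6 to 432.

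Each of the 10 stepped members divided the 24 fish differently. Over the 45 pairs of them, 6 to 19 fish were in the like state for both members (above both steps or below both), with a median of 12 of 24. No fish was in the lower state throughout. Each fish was above the step for 4 to 8 of the 10 members, with a median of 6.

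Across all 66 members, 25 fell into 3 groups with a like pattern over the fish, of 17, 6 and 2 members, and 41 stood alone. Groups were formed by average linkage on 1 minus Pearson r of the log2 values, split at r of 0.8. Of the 2145 pairs of members, 152 had r over 0.8 and 11 had r under -0.5, and the median r was 0.01. The most negative values were -0.63 between LABE_00021309-RA and LABE_00045126-RA, -0.60 between LABE_00021309-RA and LABE_00096646-RA and -0.56 between LABE_00027621-RA and LABE_00091432-RA. In each of these 3 pairs, 4 fish had one transcript on and the other off. Correlations here are over 24 fish, and all transcripts of a fish share its library and depth.

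The pair LABE_00070443-RA and LABE_00046492-RA switched together, with r = 0.98. LABE_00070443-RA was at 758, 1117, 915 and 1068 in control replicates 2, 4, 5 and 6, 987 and 714 in prebiotic replicates 2 and 5, 1146 and 1222 in soyasaponin replicates 4 and 6, and 1014, 2270.4 and 816 in combined replicates 1, 4 and 5. In the other 13 fish it was at 0 to 4.88, which is at most 5 reads, and 7 of them had none. The same 11 fish held LABE_00046492-RA at 28.9 to 306, against 0 or 1 read in the other 13. The upper level was therefore found in 4 control, 2 prebiotic, 2 soyasaponin and 3 combined fish.

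Among all transcripts 3 others followed this pair with r of at least 0.9, and none of them was ever off. LABE_00063069-RA had 509.7 to 1678 in the 11 fish above and 51.8 to 212 in the 13 below. LABE_00086532-RA had 56.1 to 177 against 7.06 to 39.7, and LABE_00073173-RA 48.6 to 150.1 against 3.52 to 44.8. The levels of all 3 did not overlap between the 2 sets of fish. These 3 identifiers, like all others outside the 66 that are named for their likeness to a member, were picked by that likeness after their values were seen.

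The largest group, of 17 members, varied as a block. Correlations between its members were 0.868 to 0.994, with a median of 0.980, while those with the first component were only -0.209 to 0.0959. LABE_00063270-RA, its most abundant member, had 0.704, 674, 0, 3364, 52.6 and 6469.7 in control replicates 1 to 6. The prebiotic replicates 1 to 6 had 2639.7, 2.82, 2322, 4.74, 11761 and 3985. The soyasaponin replicates 1 to 6 had 26.8, 432, 6.16, 1.60, 28.3 and 683, and the combined replicates 1 to 6 had 1668, 6.10, 1.06, 1.13, 1303 and 1.98. High and low fish occurred on every diet, and the diets overlapped.

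Summed over the 17, the group had 7 reads in control replicate 3 and a normalized count of 73082 in prebiotic replicate 5, the fish in which all 17 were highest. Its share of all normalized counts ran from 7.91e-05% to 0.645% between these fish, and the highest share without prebiotic replicates 4 and 5 was 0.333% in control replicate 6. The median share was 0.0238% in control fish, 0.152% in prebiotic fish, 0.00243% in soyasaponin fish and 0.000342% in combined fish. The lowest and highest shares within a diet differed by 65.6-fold in soyasaponin fish and by 4205-fold in control fish, and all 4 diets overlapped. No p is given for this sum, because its members were chosen on the same values.

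An upper set of 11 fish had summed counts of at least 2160.1, and the next fish below, control replicate 5, had 275. It comprised control replicates 2, 4 and 6, prebiotic replicates 1, 3, 5 and 6, soyasaponin replicates 2 and 6 and combined replicates 1 and 5. Over these 11 fish the sum spanned 33.8-fold, while the make-up of the block varied far less. The share of the sum taken by a single member spanned 1.37-fold to 3.72-fold, with a median of 1.49-fold. LABE_00063270-RA took 14.9% to 21.2% of it, with a mean of 17.9%.

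The block reached beyond the on-off rule. Among all 20751 transcripts, 38 had r of at least 0.9 with the mean log2 profile of the 17, which gave 21 outside the group, and 37 of the 38 were highest in prebiotic replicate 5. Of the 21, only 4 were off in 3 or more fish. The most abundant was LABE_00047846-RA, with a mean of 14863, at 8.81 to 495 in 13 fish and 5431 to 117176 in the same 11 fish as above. Summed, the 38 took 0.00541% of normalized counts in soyasaponin replicate 4 and 5.10% in prebiotic replicate 5, and 2.74% at most without prebiotic replicates 4 and 5. The 38 held 4 pairs of close identifiers, LABE_00030774-RA and LABE_00030775-RA, LABE_00039922-RA and LABE_00039923-RA, LABE_00047846-RA and LABE_00047848-RA, and LABE_00061240-RA and LABE_00061244-RA. The former pair were both members, at r = 0.97, and were the closest identifiers among the 66.

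**Figure D3:**
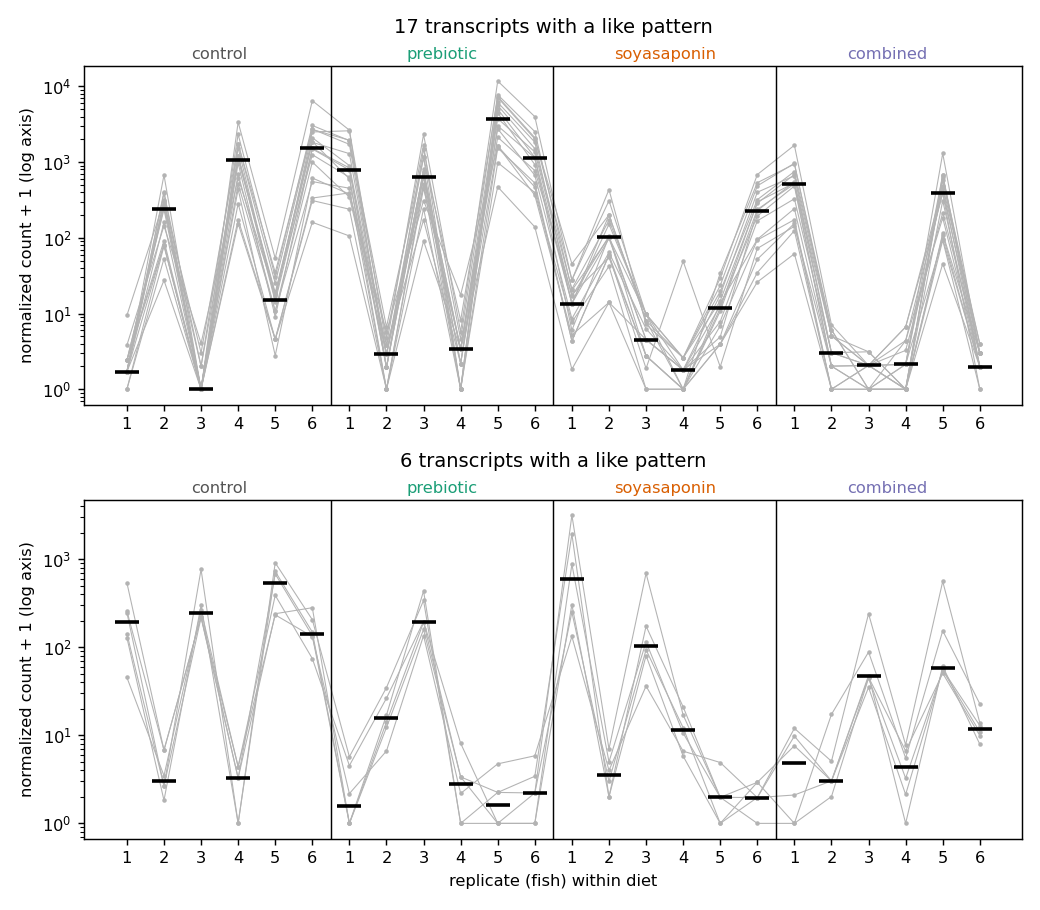
Normalized count + 1 (log axis) of the group of 17 members (upper panel) and of 6 members (lower panel) in each fish, 1 grey line for each transcript and a black bar at the median of the group in that fish. In the upper panel 11 fish stand above the rest and prebiotic replicate 5 is highest, and in the lower panel the level is graded, with control replicate 5 and soyasaponin replicate 1 at the top.

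The group of 6 members was graded, with 8 to 16 fish between off and on for each of its members and r of 0.864 to 0.982 between them. LABE_00068119-RA, its most abundant member, was at 3.40 to 537 (median 147) in control fish, 0 to 195 (median 5.32) in prebiotic fish, 0.963 to 3145 (median 11.0) in soyasaponin fish and 4.07 to 557 (median 11.9) in combined fish. Soyasaponin replicate 1 was the highest fish for 2 members, control replicate 5 for 3 and control replicate 3 for 1. The summed share of counts ran from 5.50e-05% in prebiotic replicate 5 to 0.0735% in soyasaponin replicate 1. Prebiotic replicate 5, the highest fish for the group of 17, was among the lowest here with 5 reads, and soyasaponin replicates 5 and 6 had 7 reads each, a difference within counting error. Outside the group 10 transcripts had r of at least 0.9 with it, the most abundant being LABE_00017890-RA with a mean of 2497 and values of 32.4 to 18671.

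Most of the 41 members that stood alone had no close companion anywhere in the table. Only 5 of them had another transcript at r of at least 0.9, and 27 had none at 0.8. Where a close companion existed, it was at times a neighbour by identifier. LABE_00072976-RA followed LABE_00072977-RA at r = 0.94, with 0 reads in the same 3 fish and 9.17 to 55.2 in the others. LABE_00045129-RA followed LABE_00045126-RA at r = 0.94 and was far more abundant, at 15 to 2502. LABE_00029069-RA followed LABE_00029065-RA less closely, at r = 0.85, and was listed at 0 in all 6 soyasaponin fish too. It was also at 0 in control replicate 1, where LABE_00029065-RA was at 135, and at 11.2 in combined replicate 2, where LABE_00029065-RA was at 0. The closest companion of LABE_00029065-RA, LABE_00066552-RA at r = 0.95, was far from it by identifier.

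Over all members, 7 of the 65 with another measured transcript within 10 identifier numbers had one of these at r of at least 0.8 (10.8%). Among the 7, LABE_00030774-RA and LABE_00030775-RA were each counted as the neighbour of the other. Of the single members 3 of 40 had such a neighbour at that r (7.5%). The share among all 16818 tested transcripts with such a neighbour was 4.25%. The members with the closest identifiers to each other did not otherwise move together. LABE_00096598-RA and LABE_00096611-RA had r of -0.08, LABE_00091414-RA and LABE_00091432-RA -0.01, LABE_00096611-RA and LABE_00096646-RA -0.04, and LABE_00021309-RA and LABE_00021354-RA -0.26. Nothing in the sources used here says whether neighbouring numbers are neighbours in the genome.

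Fish differed in how many of the 66 they had on. The number ran from 7 in combined replicate 2 to 35 in prebiotic replicate 3, and the number off from 11 in control replicate 5 and combined replicate 5 to 34 in control replicate 3. Control replicate 3 had no read at all for 28 of the 66. Control fish had 16 to 32 members on (median 21.5), prebiotic fish 12 to 35 (median 25.5), soyasaponin fish 11 to 26 (median 14.5) and combined fish 7 to 28 (median 14.5). The diets overlapped, and the groups of like pattern weigh on these numbers, since the 17 of the largest group enter together. All 66 together took 0.0271% of normalized counts in combined replicate 2 and 0.689% in prebiotic replicate 5.

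**Figure D4:**
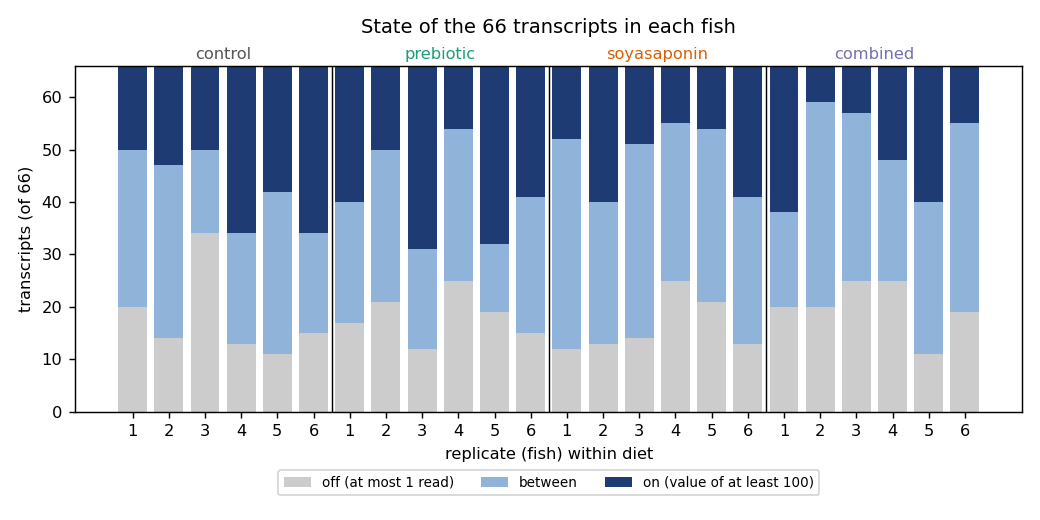
Number of the 66 members that were off (at most 1 read), between, or on (normalized count of at least 100) in each fish, stacked to 66, with fish by diet and replicate. Prebiotic replicate 3 has the most members on, 35, combined replicate 2 the fewest, 7, and control replicate 3 the most off, 34.

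Presence and absence crossed the diets for most members. Fish in the on state occurred on all 4 diets for 31 members, on 3 diets for 23, on 2 for 11 and on a single diet for 1. Fish in the off state occurred on all 4 diets for 32 members. The 14 members on in only 3 fish could not be on in all 4 diets. The 15 off in only 3 fish likewise could not be off in all 4. Members of the largest group vary together and enter these counts together. Off in all 6 fish of a diet were LABE_00068307-RA and LABE_00096598-RA in control fish and LABE_00029065-RA in soyasaponin fish, and no member was off in all prebiotic or all combined fish. LABE_00068307-RA was named for this after its values were seen.

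The diets were compared in a single limma fit over the 17056 transcripts, with Benjamini-Hochberg adjustment over all of them. The rule for members used no diet label, but it picked transcripts that vary widely between fish. No member passed an adjusted p under 0.05 for the soyasaponin main effect (12 fish with soyasaponin against 12 without), for which 5.96% of all tested transcripts were called. None passed for the prebiotic main effect, where the share among all was 0%, for soyasaponin against control (0.985%), for prebiotic against control (1.82%) or for the interaction (0%). In combined against control 1 of the 66 passed (1.52%), against 3.24% of all.

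The shares over all transcripts rested in part on single fish. For soyasaponin against control, the 168 calls among all transcripts became 0 without control replicate 3 and 621 without soyasaponin replicate 2, and leaving out any of 11 fish moved them by over 1.5 times. For prebiotic against control, 310 calls became 0 without prebiotic replicate 5 and 1006 without prebiotic replicate 6. For combined against control, 553 calls became 19 without combined replicate 2 and 820 without control replicate 5. The 1017 calls of the soyasaponin main effect ran from 646 without combined replicate 2 to 1538 without soyasaponin replicate 2. Without prebiotic replicates 4 and 5, limma called 2 of the 66 members (3.03%) for the soyasaponin main effect, against 6.92% of all tested transcripts, and 1 (1.52%) for combined against control, against 4.66%. It called 0 members for the prebiotic main effect, soyasaponin against control, prebiotic against control and the interaction, against 0.00586%, 1.62%, 0.0645% and 0% of all in turn.

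Before adjustment, 7 of the 66 members had limma p under 0.05 for the soyasaponin main effect (10.6%) and 4 for the prebiotic main effect (6.06%), against 21.4% and 14.8% of all tested transcripts. Against control the counts were 4 for soyasaponin (6.06%), 4 for prebiotic (6.06%) and 5 for combined (7.58%), beside 16%, 21.6% and 20.6% of all, and 3 had it for the interaction (4.55%), beside 12.7%. These counts depended on the tool. For the soyasaponin main effect 28 of the 66 had p under 0.05 with edgeR and 28 with DESeq2. For the prebiotic main effect 12 had it with edgeR and 10 with DESeq2, and in the other contrasts 5 to 9. The shares among all transcripts before adjustment were not taken for these 2 tools, so these counts cannot be set beside them. The 17 members of the largest group vary together and can enter such a count together. How many of them are among the 28 was not taken. In the limma fit, fold changes and standard errors of the members were both larger at the median than those of all transcripts. This is built into a rule that picks transcripts varying widely between fish. The median size of the log2 fold change was 1.54 for combined against control and 1.33 for the soyasaponin main effect, against 0.22 and 0.16 over all transcripts. Their median standard errors were 1.60 and 1.13, against 0.20 and 0.14.

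Tests on the recovered reads called more members. For the soyasaponin main effect, the edgeR quasi-likelihood test called 2 of the 66 (3.03%), against 6.36% of all tested transcripts. It called 1 (1.52%) for soyasaponin against control and 1 (1.52%) for prebiotic against control, against 1.13% and 1.77% of all, and 2 (3.03%) for combined against control, against 2.87%. For the prebiotic main effect and the interaction it called 0 members and 0% of all. DESeq2, which gave an adjusted p for 65 of the 66, called 5 (7.69%) for the soyasaponin main effect and 2 (3.08%) for the prebiotic main effect, against 9.79% and 0.8% of all transcripts with an adjusted p. Against control it called 4 members (6.15%) on each diet, beside 3.64% of all for soyasaponin, 9.26% for prebiotic and 7.32% for combined. For the interaction it called 3 (4.62%), beside 0.552%. The members' share was thus below that of all transcripts with every tool for the soyasaponin main effect. It was above it with DESeq2 for the prebiotic main effect, soyasaponin against control and the interaction. With edgeR it was slightly above for soyasaponin against control and combined against control. These shares rest on 0 to 5 members each, and their differences from the shares among all were not tested. The members called by edgeR were LABE_00004558-RA, LABE_00018405-RA and LABE_00068307-RA, the latter 2 named after their values were seen.

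The member that fell was LABE_00004558-RA. Its normalized counts were 32.2 to 349.9 (median 60.3) in control fish and 0.990 to 34.4 (median 2.24) in combined fish, with 1.19 to 38.8 (median 11.2) in prebiotic fish and 0.977 to 100.4 (median 9.16) in soyasaponin fish. Combined replicate 5, at 34.4, was the fish that reached into the control range. The log2 fold change of combined against control was -4.20 (SE 0.95, limma adjusted p = 0.0231). It was -3.81 without control replicate 3 (limma adjusted p = 0.0548) and -3.94 without combined replicate 2 (limma adjusted p = 0.0692). Against control it was -3.32 (SE 0.95, limma adjusted p = 0.0668) on prebiotic and -3.22 (SE 0.95, limma adjusted p = 0.0907) on soyasaponin. These comparisons share the control fish. For combined, edgeR and DESeq2 also called this member (adjusted p of 0.0423 and 0.00285). DESeq2 called it for prebiotic (adjusted p = 0.0181), edgeR did not, and neither did for soyasaponin. With single fish left out, limma called it for prebiotic without prebiotic replicate 6 (adjusted p = 0.0330) or soyasaponin replicate 1 (0.0497). For soyasaponin, limma did so only without soyasaponin replicate 1 (0.0489).

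LABE_00068307-RA, off in all 6 control fish, had 0.704 (1 read) in control replicate 1 and 0 in the other 5. Prebiotic replicates 1 to 6 had 38.9, 0, 109, 28.5, 67.3 and 48.5. Soyasaponin replicates 1 to 6 had 43.5, 147, 59.0, 0.801, 0 and 7.70, and combined replicates 1 to 6 had 1.10, 1.02, 104, 1.13, 40.4 and 106. At least 3 fish on each diet with an addition thus stood above 7, and no control fish stood above 1. The limma adjusted p against control was 0.0619 for prebiotic, 0.164 for soyasaponin and 0.121 for combined, while edgeR gave adjusted p of 0.0369, 0.0476 and 0.0329. DESeq2 gave adjusted p of 0.000716, 0.000945 and 0.000761. It also called this member for the soyasaponin main effect, the prebiotic main effect and the interaction (DESeq2 adjusted p of 0.0104, 0.0387 and 0.0447). Without prebiotic replicate 2, which had 0, the limma adjusted p for prebiotic was 0.0330. LABE_00068307-RA was the only member whose values did not overlap between diets, in combined against control, where this held for 3.15% of all tested transcripts, and 3 of those combined fish had 1 read, as had control replicate 1. In the other pairs of diets 0 of the 66 members stood apart, where this held for 1.56% of all tested transcripts in prebiotic against control, 1.27% in soyasaponin against control, 1.2% in soyasaponin against prebiotic, 2.96% in combined against prebiotic and 0.311% in combined against soyasaponin.

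LABE_00096598-RA, with 0 or 1 read in control fish, was above its step in 3 prebiotic, 2 soyasaponin and 4 combined fish, and its limma adjusted p was 0.258, 0.453 and 0.162 against control for these diets in turn. DESeq2 called it in all 3 comparisons (adjusted p of 0.00677, 0.00558 and 0.00428), and edgeR in none. LABE_00029065-RA, at 0 reads in the 6 soyasaponin fish and 135 to 264 in 3 of the 6 control fish, had a limma adjusted p of 0.353. DESeq2 called it for soyasaponin against control (DESeq2 adjusted p = 1.50e-06), and edgeR called it in no contrast. It was also among the DESeq2 calls for the soyasaponin main effect, the prebiotic main effect and the interaction (DESeq2 adjusted p of 0.000429, 0.00858 and 0.00858). All of these contrasts include the soyasaponin fish, which had no reads, and DESeq2 put the log2 fold changes at -12.3, 12.1 and 24.5. Mean normalized counts were 99.5 in control, 91.8 in prebiotic and 91.3 in combined fish. DESeq2 did not call LABE_00029065-RA for prebiotic against control or for combined against control.

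**Figure D5:**
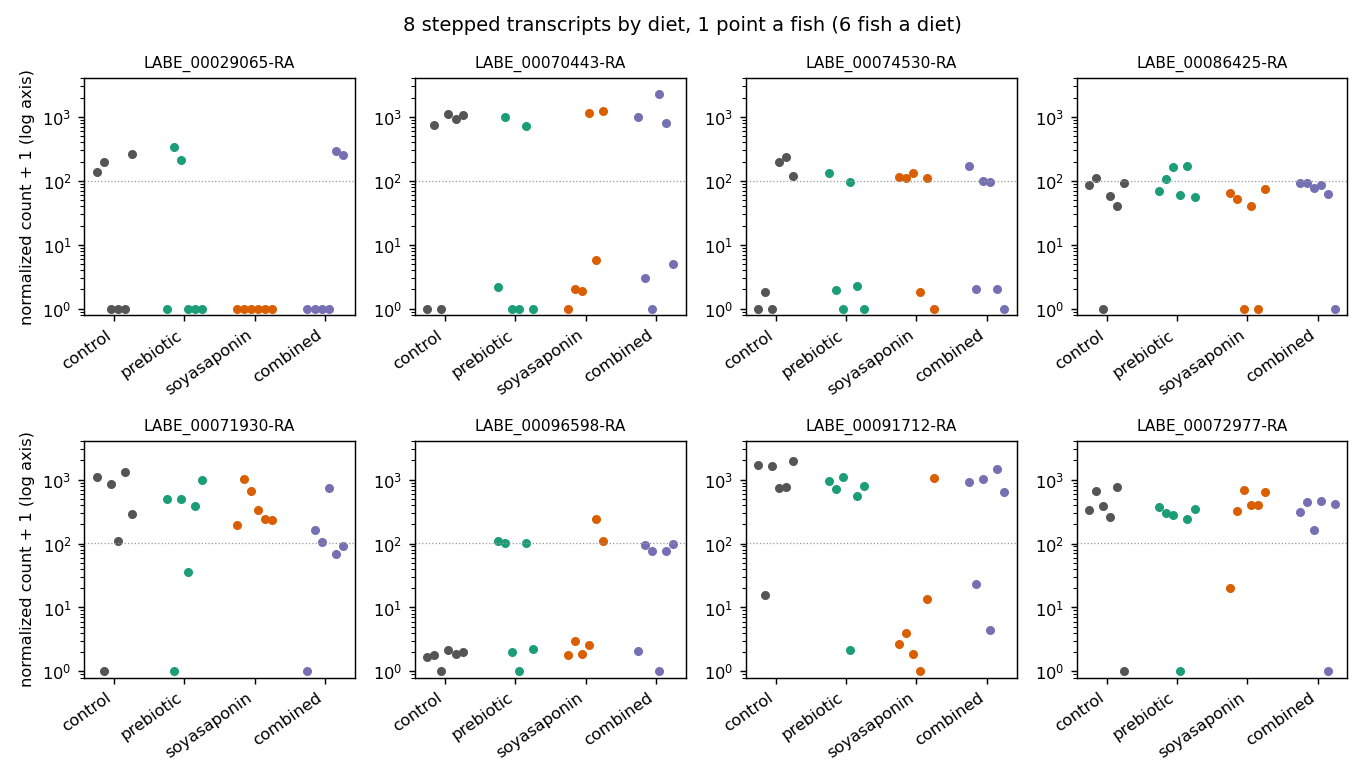
Normalized count + 1 (log axis) of the 8 members with the widest steps, 1 point for each fish, by diet, with a dotted line at a normalized count of 100. LABE_00070443-RA, LABE_00074530-RA and LABE_00091712-RA have fish at each level on every diet, while LABE_00029065-RA has no soyasaponin fish and LABE_00096598-RA no control fish at the upper level.

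LABE_00091712-RA, a member with a wide step between 22.4 and 557, was at the upper level in 5 control, 5 prebiotic, 4 combined and 1 soyasaponin fish. Control fish had 14.9 to 1952 (median 1201) and soyasaponin fish 0 to 1068 (median 2.34), with soyasaponin replicate 6 as the fish at the upper level. The log2 fold change of soyasaponin against control was -6.22 (SE 1.81, limma adjusted p = 0.0841). It was the same size with a limma adjusted p of 0.0497 without prebiotic replicate 4, a fish on neither of the diets compared. No other alternative called this member for soyasaponin against control, edgeR and DESeq2 included. For the soyasaponin main effect its log2 fold change was -3.36 (SE 1.28, limma adjusted p = 0.121). Without prebiotic replicates 4 and 5 it was -4.14 (limma adjusted p = 0.0429), and LABE_00004558-RA also passed there at -2.56 (limma adjusted p = 0.0278). The combined fish, which ate soyasaponin too, had 3.39 to 1488 (median 778), and the interaction had a limma adjusted p of 0.359.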

How the data were processed

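The deposited table holds 20751 transcripts in 24 libraries of ballan wrasse hindgut, and every column was mapped to a fish by its name. Its unit is a signal, the read count of a transcript divided by a size factor for the library, as deposited by the authors. Libraries were strand-specific, started from 90 ng of RNA and were read from both ends, per the labels' protocols. The submitters' processing notes name DESeq2, featureCounts (Subread), TopHat2 and cutadapt. Tool versions, genome build and annotation: not given in the sources used here. Reads were recovered as each value over the lowest non-zero value of its column, and came out whole, within 1e-06, for 100% of the 498024 values (8.42 to 12.5 M, or mega, reads a library, size factors 0.803 to 1.42). The lowest total of a transcript was 51 reads. Of the 20751 identifiers, 0 were found in the RefSeq gene list for the fLabBer1.1 assembly. How reads of near-identical copies were shared out was not looked into.

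The members, their rule and the tests were chosen with earlier results of these data known. Components came from log2(normalized count + 1) of the 17056 transcripts with a mean of at least 10, centred and not scaled. limma (version 3.58.1, R 4.3.3) with an intensity trend was fitted to these values and all 4 diets, with 6 contrasts, two-sided tests and a threshold of 0.05 on the adjusted p over all 17056. The pseudocount of 1 understates the fold change of transcripts with few reads. The labels name no animal, tank or batch for a sample, and replicate numbers were given in record order, so they pair no fish. The numbers in the sample titles, whose meaning is not given in the labels, fall into a lower and an upper run of 3 in control, prebiotic and combined fish, and less clearly in soyasaponin fish. A limma fit with these 8 runs as a random block was added after seeing the data. Alternatives were the pseudocount, the filter, quantile normalization, edgeR 4.0.16 and DESeq2 1.42.0 on the recovered reads, the diets in the fit, each fish left out, prebiotic replicates 4 and 5 left out, and other thresholds of the rule for members. The limma fit was tested on simulated data. Plots were drawn with matplotlib 3.10.9.

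Members named in the text were to be, in each contrast, the 2 with the largest rise and the 2 with the largest fall past the threshold, the 6 with the widest step, the most abundant of each of the 6 largest groups of like pattern (3 groups had more than 1 member), the 3 with the highest mean, the 3 pairs with the most negative r, the 5 pairs with the closest identifiers, those with the fewest and the most fish on, and those next to each threshold. Of the 14 on in only 3 fish, those with no other place in the results are not named. Any other identifier was named after its values were seen.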

Additional observations from a re-analysis of the deposited data

Results flagged for a closer look

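For the members described by name, their groups and the numbers of members on and off, 136 sets of 6 fish of a diet were examined on the log2 scale by Dixon's criterion, and 21 sets held a fish that stood apart from the other 5. Chance alone marks about 1 in 20 sets only where the values follow a normal distribution. The members had been chosen for a wide spread between fish, with some fish off and others on. The 21 therefore cannot be set against that rate and are a description.

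Low fish were found in 8 transcripts. LABE_00072977-RA was at 0 in control replicate 6 (others 255 to 766), at 0 in prebiotic replicate 4 (others 243 to 374), at 0 in combined replicate 5 (others 163 to 457) and at 19.2 in soyasaponin replicate 1 (others 324 to 679). LABE_00071930-RA was at 0 in control replicate 2 (others 108 to 1324) and in combined replicate 1 (others 68.7 to 745). LABE_00086425-RA was at 0 in control replicate 3 (others 39.2 to 108) and in combined replicate 6 (others 61.6 to 92.4). LABE_00091432-RA was at 0 in prebiotic replicate 3 (others 22.5 to 92.0) and in soyasaponin replicate 1 (others 38.0 to 122). LABE_00091712-RA was at 14.9 in control replicate 2 (others 751 to 1952) and at 1.19 in prebiotic replicate 4 (others 557 to 1098). LABE_00081415-RA was at 0 in combined replicate 5 (others 50.9 to 169.7), and LABE_00068307-RA at 0 in prebiotic replicate 2 (others 28.5 to 109). LABE_00096598-RA was at 0 in control replicate 3, where the other 5 fish had 1 read each (0.704 to 1.13), so that this mark rests on a single read.

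High fish were found in 4 transcripts. LABE_00002110-RA was at 20.4 in control replicate 4 (others 0 to 1.65) and at 101.7 in soyasaponin replicate 4 (others 0 to 3.52). LABE_00091414-RA was at 113 in control replicate 2 (others 0 to 3.52) and at 57.4 in combined replicate 6 (others 1.06 to 5.50). LABE_00027621-RA was at 134 in prebiotic replicate 3 (others 1.18 to 5.63). LABE_00068307-RA was at 0.704, a single read, in control replicate 1 (others at 0).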

How the results depend on the processing

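The set of 66 depended on its thresholds: 40 of the 66 met the rule with off as 0 reads, 33 with on as a value of at least 200 and 40 with 4 or more fish, while 128 transcripts met it with on as a value of at least 50 and 118 with 2 or more fish. Splitting at r of 0.7 gave 5 groups of like pattern in place of 3. Counts of members called, with limma, moved by at most 1 member under the other pseudocounts, filters, normalization and choice of diets: 1 for prebiotic against control with a pseudocount of 5, and 0 for combined against control with a mean of at least 50, a filter that LABE_00004558-RA does not pass. For the soyasaponin main effect the count was 2 with edgeR (6.36% of all transcripts called), 5 with DESeq2 (9.79%) and 2 without prebiotic replicates 4 and 5 (6.92%), all below the share among all transcripts. For soyasaponin against control it was 1 with edgeR (1.13%) and 4 with DESeq2 (3.64%), for prebiotic against control 1 (1.77%) and 4 (9.26%), and for combined against control 2 (2.87%) and 4 (7.32%). DESeq2 called 2 for the prebiotic main effect (0.8%) and 3 for the interaction (0.552%), where edgeR called 0 of all. With the runs of title numbers as a random block, an alternative added after seeing the data (correlation within a run -0.0405), 2 members passed for prebiotic against control, LABE_00068307-RA and LABE_00004558-RA (limma adjusted p of 0.0414 and 0.0429), and the other 5 counts were as before. Each run lay within a single diet, and a negative correlation then narrows the standard errors, so this fit was not stricter than the main one. The share called among all transcripts in this fit is not given here, so the 2 members cannot be set beside it. For combined against control LABE_00004558-RA kept its log2 fold change of -4.20, with a limma adjusted p of 0.0131. The cause of the other differences was not tested. Leaving out each fish in turn gave 0 to 1 members for the soyasaponin main effect and for each diet against control, and 0 for the prebiotic main effect and the interaction. The change in LABE_00004558-RA for combined against control ran from -4.77 to -3.81 without single fish (limma adjusted p 0.0173 to 0.0692). It kept its direction under every alternative in which it was fitted. No paired analysis was possible because the labels give no replicate numbers that tie fish across diets. A value near 0 is limited by depth, at 3 reads a library.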

Other observations

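The identifiers of the members that stood alone were unevenly spread over the numbering. A number of at least 65000, a limit set after seeing the values, was carried by 63.4% of the 41 single members, by 0% of the 17 in the largest group and by 16.6% of all 17056 tested transcripts. The limit lies above every number in the largest group, so its 0% follows from that choice. These percentages are a description without a test. What the order of the numbers stands for is not given in the sources used here.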
